A study of Homo sapiens with 6 samples.

Results

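The genes described here build and maintain the primary cilium, with the intraflagellar transport (IFT) complexes at their centre. A list of 41 genes was drawn up, and a gene counted as measured where a probe set of the array carried its symbol and no other. Of the 41, 30 were measured, among 11963 genes measured in all, and the brightest of a gene's probe sets, by mean log2 value over the arrays, stood for it. The other 11 (IFT80, IFT172, IFT43, WDR35, BBS2, BBS5, BBS12, ARL6, TMEM67, RAB3IP and PKD2) were not analysed here.

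The primary cilium is a single antenna of microtubules that most kidney tubule cells carry on the side facing the lumen, where it holds receptors and channels apart from the rest of the cell membrane. Nothing is made inside it: kinesin-2 motors pull trains of the IFT-B complex, loaded with cargo, to the tip, and dynein-2 motors with the IFT-A complex bring them back. The BBSome, a coat of Bardet-Biedl syndrome proteins, carries membrane proteins on these trains, and the transition zone at the base acts as a gate. Mutations in these genes cause polycystic kidneys, nephronophthisis and related disorders. OCRL, the phosphoinositide phosphatase lost in Lowe syndrome, is also known to act in traffic to the cilium.

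The cells were HK2, a single immortalised line derived from human kidney proximal tubule, grown in DMEM F12 with insulin, transferrin and selenium. At 30% confluence the cells were transfected, with Dharmafect 4, with OCRL siRNA or with non targeting siRNA, and total RNA was extracted 96 h later. There were 3 arrays per group, described in the labels as separate experiments, so 6 arrays limit the precision. Every value is a log2 probe set value, and every difference is OCRL siRNA minus control on that scale. A gene is called higher or lower at an adjusted p below 0.05 by limma, over all 22215 probe sets tested. Cilia themselves were not measured.

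The siRNA target was lower on each knockdown array. OCRL was at 9.49, 9.48 and 9.50 on the control arrays and at 7.52, 7.49 and 7.40 on the OCRL siRNA arrays, which left 24.6% of the control level. Its dimmer probe set left 49.7%. With this 1 siRNA treatment, effects of the reagent and of less OCRL cannot be told apart. Array medians were 7.23 to 7.24 in control and 7.27 to 7.30 in knockdown cells. As a sign of RNA quality, the 3' minus 5' log2 difference of the ACTB control probe sets was 1.48 to 1.80 in control and 1.64 to 1.69 in knockdown cells, and that of GAPDH was 0.28 to 0.32 and 0.29 to 0.34. Of 13 kidney epithelium markers, PAX8, KRT8, KRT19, CDH6 and EPCAM were called lower and ANPEP was called higher. This was 46.2% called, against 26.0% of all genes. LRP2, AQP1 and ANPEP, which mark differentiated proximal tubule, were dim, with values under the array's lower quartile in all 6 samples. CUBN, SLC34A1 and SLC22A6, markers of the same kind, were not under it in all samples (control means 5.45, 5.63 and 5.61) and were not called. The mean log2 level over the 13 markers was 8.04 to 8.10 in control and 7.82 to 7.89 in knockdown cells. Whether this shift has a part in the cilium gene results was not tested. None of the 7 measured markers of multiciliated cells, whose motile cilia use many of the same IFT genes, was called by limma, and 0 had an unadjusted p below 0.05. Their mean log2 level was 5.54 to 5.72 in control and 5.55 to 5.69 in knockdown cells. Of 8 fibroblast markers 1, LUM, was called lower, and none of 7 endothelial or 6 leukocyte markers was called by limma, with 2 and 0 at an unadjusted p below 0.05.

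After the knockdown, 10 of the 30 cilium genes rose, 3 fell and 17 did not pass. WDR19 and IFT122 of IFT-A, the dynein-2 heavy chain gene DYNC2H1, IFT27 and IFT46 of IFT-B, BBS4, the transition zone genes NPHP4 and TCTN2, and the traffic factors ARL3 and TULP3 were higher. The BBSome assembly factor BBS10, the transition zone tether CEP290 and IFT20 were lower. The changes were small: rises ran from 1.15-fold to 1.41-fold, and BBS10 alone reached 1.5-fold. In these bulk samples, fewer cells with a transcript and less of it per cell cannot be told apart.

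Over all 11963 genes, 26.0% were called, 15.5% higher and 10.5% lower, against 13 of 30 (43.3%), 10 and 3 here. Because the cilium genes were listed with earlier results of these arrays known, this share is a description. The median difference of the 30 genes was 0.04, with 21 above 0 and 9 below, and that of all genes was 0.000503. Making array medians equal (median centring) lowered all differences by the same amount, so the gap between the 2 medians stayed as it was. The median of the 30 was then -0.0028, with 9 called higher and 3 lower. The share of all called genes that were higher went from 59.7% to 44.8%. The 2 groups of arrays did not overlap in 14 of the 30 genes, 11 higher and 3 lower, where 44.9% of all genes had groups that did not overlap. Without OCRL siRNA replicate 1 or without OCRL siRNA replicate 2, 1 gene was called lower in place of 3: CEP290 (adjusted p = 0.0619 and 0.0501) and IFT20 (0.0834 and 0.0905) lost their calls and BBS10 kept its own.

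**Figure D1:**
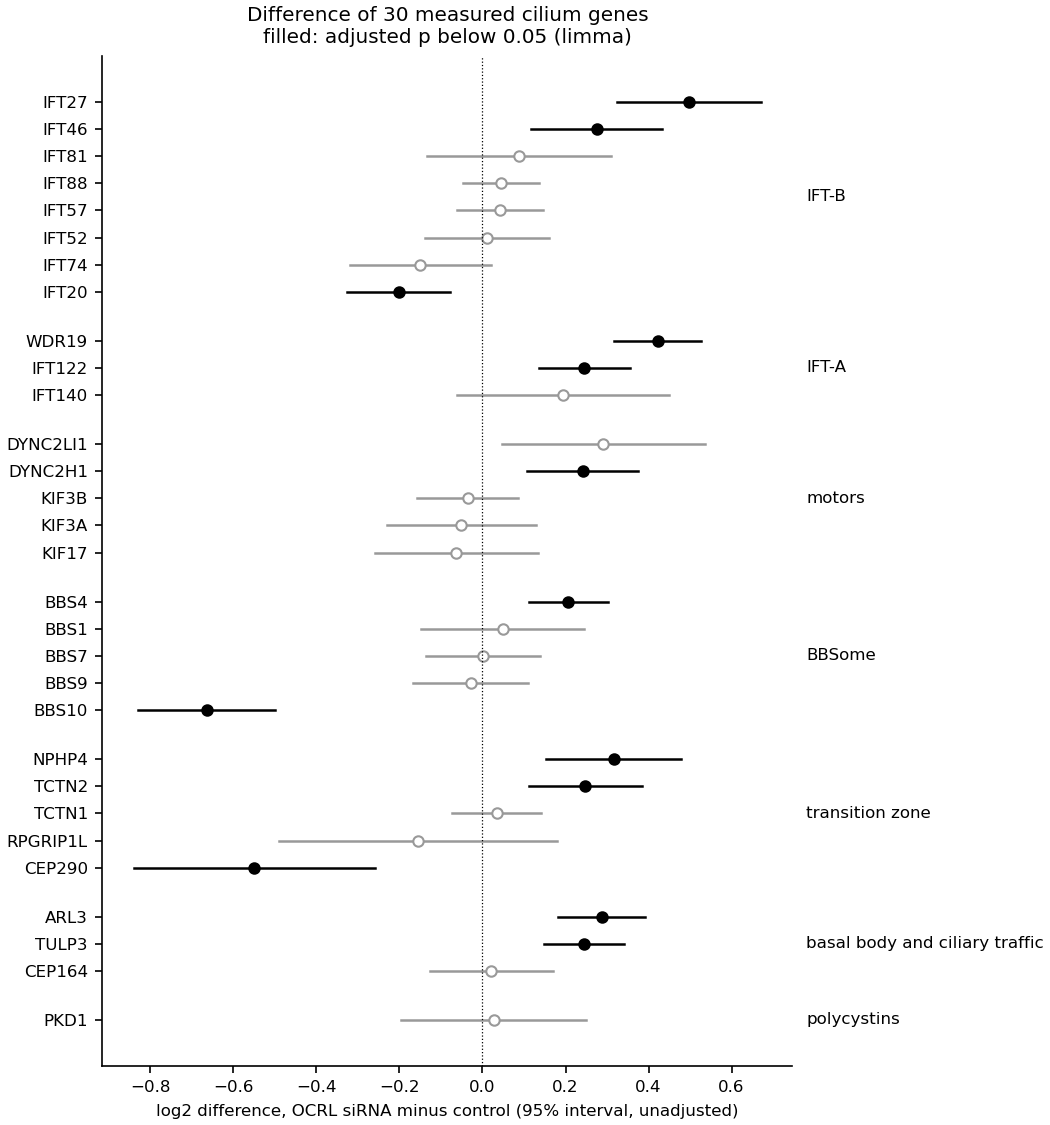
Log2 difference (OCRL siRNA minus control) of each of the 30 measured cilium genes, grouped by complex, with the 95% interval of limma, not adjusted for the number of genes; filled points have an adjusted p below 0.05. WDR19 and IFT27 lie farthest to the right (0.42 and 0.50), and BBS10 and CEP290 farthest to the left (-0.66 and -0.55).

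IFT-A, the complex of the return trains, had 2 of its 3 measured genes higher and none lower. WDR19, a beta-propeller subunit of IFT-A, was at 8.74, 8.74 and 8.81 in control cells and 9.16, 9.22 and 9.19 in knockdown cells, from 8.77 ± 0.0421 to 9.19 ± 0.0265 (mean ± SD, n = 3). All knockdown arrays lay above all control arrays, a 1.34-fold rise (log2 difference 0.42, SE 0.0440, adjusted p = 8.50e-04, limma). IFT122, a core subunit of IFT-A, was at 7.79, 7.79 and 7.88 in control cells and 8.03, 8.08 and 8.08 in knockdown cells. Its groups did not overlap, a 1.19-fold rise (log2 difference 0.25, SE 0.0459, adjusted p = 0.00946). A dimmer IFT122 probe set pointed the other way, at 7.21, 7.36 and 7.13 in control cells against 6.98, 7.08 and 7.10 after the knockdown (log2 difference -0.18, adjusted p = 0.118). With probe sets averaged per gene, IFT122 was not called (log2 difference 0.03, adjusted p = 0.637). The third measured subunit, IFT140, was lower in level and varied more between arrays, at 5.30, 5.05 and 5.19 in control cells and 5.31, 5.23 and 5.59 in knockdown cells (log2 difference 0.19, 95% interval -0.06 to 0.45). Over the 3 measured IFT-A genes the median difference was 0.25, which is the value of the brightest IFT122 probe set. With probe sets averaged per gene, 1 IFT-A gene was called higher.

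Transcription factors of the RFX family bind the X-box, an inverted repeat found upstream of many cilium genes. The promoters of the listed genes were read for it, as a description of their sequence. RefSeq promoter windows (GRCh38.p14, 250 bases before to 50 after the start) were searched on both strands for GTNNCC and NGNAAC separated by 0 to 3 bases. Of the 41 listed genes, 37 had a window, and 8 of these (21.6%) held a match, against 1661 of 27305 genes (6.08%) and 5.01% of all windows of this length. The match was at IFT122, at KIF17, DYNC2LI1, IFT57, IFT74 and TCTN1, and at ARL6 and RAB3IP, which were not analysed here. It stood in the window of 1 of 9 genes that rose, 0 of 3 that fell and 5 of 16 that did not pass. These are matches of letters, not measured binding sites, and their relation to the calls was not tested. The promoter of IFT122, where the match spans the start, is shown beside that of WDR19, which rose more and holds no match; capitals mark the match, and both runs end 20 bases past the start.
IFT122 (chr3:129439974-129440243, plus strand): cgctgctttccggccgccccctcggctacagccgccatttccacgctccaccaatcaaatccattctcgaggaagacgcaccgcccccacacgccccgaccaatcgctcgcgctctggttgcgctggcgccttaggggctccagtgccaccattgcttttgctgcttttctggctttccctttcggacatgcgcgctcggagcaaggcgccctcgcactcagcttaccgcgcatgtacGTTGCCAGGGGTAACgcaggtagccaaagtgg
WDR19 (chr4:39182279-39182548, plus strand): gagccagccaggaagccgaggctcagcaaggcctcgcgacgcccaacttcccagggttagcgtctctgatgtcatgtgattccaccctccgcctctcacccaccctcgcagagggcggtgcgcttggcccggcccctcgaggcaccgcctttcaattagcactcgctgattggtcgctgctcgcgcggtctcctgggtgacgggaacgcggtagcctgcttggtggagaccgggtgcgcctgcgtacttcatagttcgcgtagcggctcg
The matches of the measured genes that were not called are shown with up to 20 bases on each side. In TCTN1 the match begins at the first transcribed base, and IFT57 holds a match on each strand.
KIF17 (chr1:20718037-20718089, minus strand): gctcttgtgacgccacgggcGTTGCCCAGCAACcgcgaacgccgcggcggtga
DYNC2LI1 (chr2:43773973-43774027, plus strand): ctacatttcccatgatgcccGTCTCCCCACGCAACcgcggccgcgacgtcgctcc
IFT57 (chr3:108222405-108222474, minus strand): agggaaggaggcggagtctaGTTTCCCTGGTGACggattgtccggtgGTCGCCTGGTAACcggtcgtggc
IFT74 (chr9:26956364-26956416, plus strand): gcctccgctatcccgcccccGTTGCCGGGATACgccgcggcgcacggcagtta
TCTN1 (chr12:110614109-110614148, plus strand): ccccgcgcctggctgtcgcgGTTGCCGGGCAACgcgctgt

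Of the 5 motor genes 1, the dynein-2 gene DYNC2H1, was higher and none was lower. DYNC2H1, the heavy chain that walks trains back to the base, was at 7.16, 7.18 and 7.28 in control cells and 7.52, 7.39 and 7.43 in knockdown cells. The groups did not overlap, a 1.18-fold rise (log2 difference 0.24, SE 0.0563, adjusted p = 0.0226). This call was lost after median centring (adjusted p = 0.0519) and without control replicate 1 or 2 or OCRL siRNA replicate 1 or 3 (0.0564 to 0.0743). DYNC2LI1, its light intermediate chain, was at 8.35, 7.98 and 8.15 in control cells and 8.52, 8.33 and 8.51 in knockdown cells (log2 difference 0.29, 95% interval 0.05 to 0.53, adjusted p = 0.0879). Its groups overlapped through control replicate 1, and without that array DYNC2LI1 was called higher (log2 difference 0.39, adjusted p = 0.0300). Its dimmer probe set had a difference of 0.05.

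The kinesin-2 genes did not pass. KIF3A, a motor subunit of the kinesin that pulls trains outward, was at 8.84, 8.58 and 8.59 in control cells and 8.63, 8.62 and 8.60 in knockdown cells (log2 difference -0.05, 95% interval -0.23 to 0.13). Only control replicate 1 stood apart, and without it the difference was 0.03. KIF3B, its partner, was at 9.73, 9.69 and 9.64 against 9.73, 9.61 and 9.62 (log2 difference -0.04, 95% interval -0.16 to 0.09). KIF17, a kinesin-2 that works as a pair of identical chains, was dimmer, with overlapping groups (log2 difference -0.06, 95% interval -0.26 to 0.13). The difference between the dynein-2 and the kinesin-2 genes was not tested. Over the 5 motor genes the median difference was -0.04.

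IFT-B, the complex of the outward trains, went both ways, with 2 genes higher, 1 lower and 5 not past the test, and a median difference of 0.04. IFT27, a small GTPase of IFT-B needed for the BBSome to leave the cilium, had the largest rise among the 30. It was at 7.92, 8.06 and 7.88 in control cells and 8.51, 8.33 and 8.52 in knockdown cells, from 7.96 ± 0.0953 to 8.45 ± 0.103. Every knockdown array was above every control array, a 1.41-fold rise (log2 difference 0.50, SE 0.0729, adjusted p = 0.00350). The dimmer IFT27 probe set had groups that overlapped, at 5.65, 5.79 and 5.67 against 5.56, 5.73 and 5.66 (log2 difference -0.06, adjusted p = 0.589), so the rise rests on 1 probe set. IFT46, a subunit of the IFT-B core, was at 8.34, 8.44 and 8.49 in control cells and 8.64, 8.81 and 8.65 in knockdown ones, a 1.21-fold rise (log2 difference 0.28, SE 0.0663, adjusted p = 0.0254). Its groups did not overlap, but the call was lost without control replicate 1 or 2 or OCRL siRNA replicate 2 or 3 (adjusted p = 0.0536 to 0.0663).

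IFT20 was the IFT-B gene that fell. It encodes the subunit that also sits at the Golgi and helps send membrane proteins to the cilium. Its values were 10.76, 10.82 and 10.91 in control cells and 10.63, 10.62 and 10.64 in knockdown cells. The knockdown arrays lay together below the lowest control array, which left 86.9% of the control level (log2 difference -0.20, SE 0.0519, adjusted p = 0.0321). The call was lost without any 1 of the arrays other than control replicate 1 (adjusted p = 0.0820 to 0.0931).

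The other IFT-B genes did not pass. The core subunit IFT88, whose loss in mice gives polycystic kidneys, was at 8.59, 8.61 and 8.61 in control cells and 8.65, 8.64 and 8.65 in knockdown cells. Its groups did not overlap, yet the difference was 0.04 (95% interval -0.05 to 0.14, adjusted p = 0.472). IFT52 (0.01) and IFT57 (0.04) had differences near 0 and groups that overlapped. The groups of the tubulin-binding IFT81 (0.09) overlapped through control replicate 1. Without that array its difference was 0.18 and still not called (adjusted p = 0.105). IFT74, the partner of IFT81, was at 8.24, 8.08 and 8.01 against 7.88, 7.99 and 8.01 (log2 difference -0.15, 95% interval -0.32 to 0.02, adjusted p = 0.190). The 95% intervals of the 5 genes lay between -0.32 and 0.31.

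**Figure D2:**
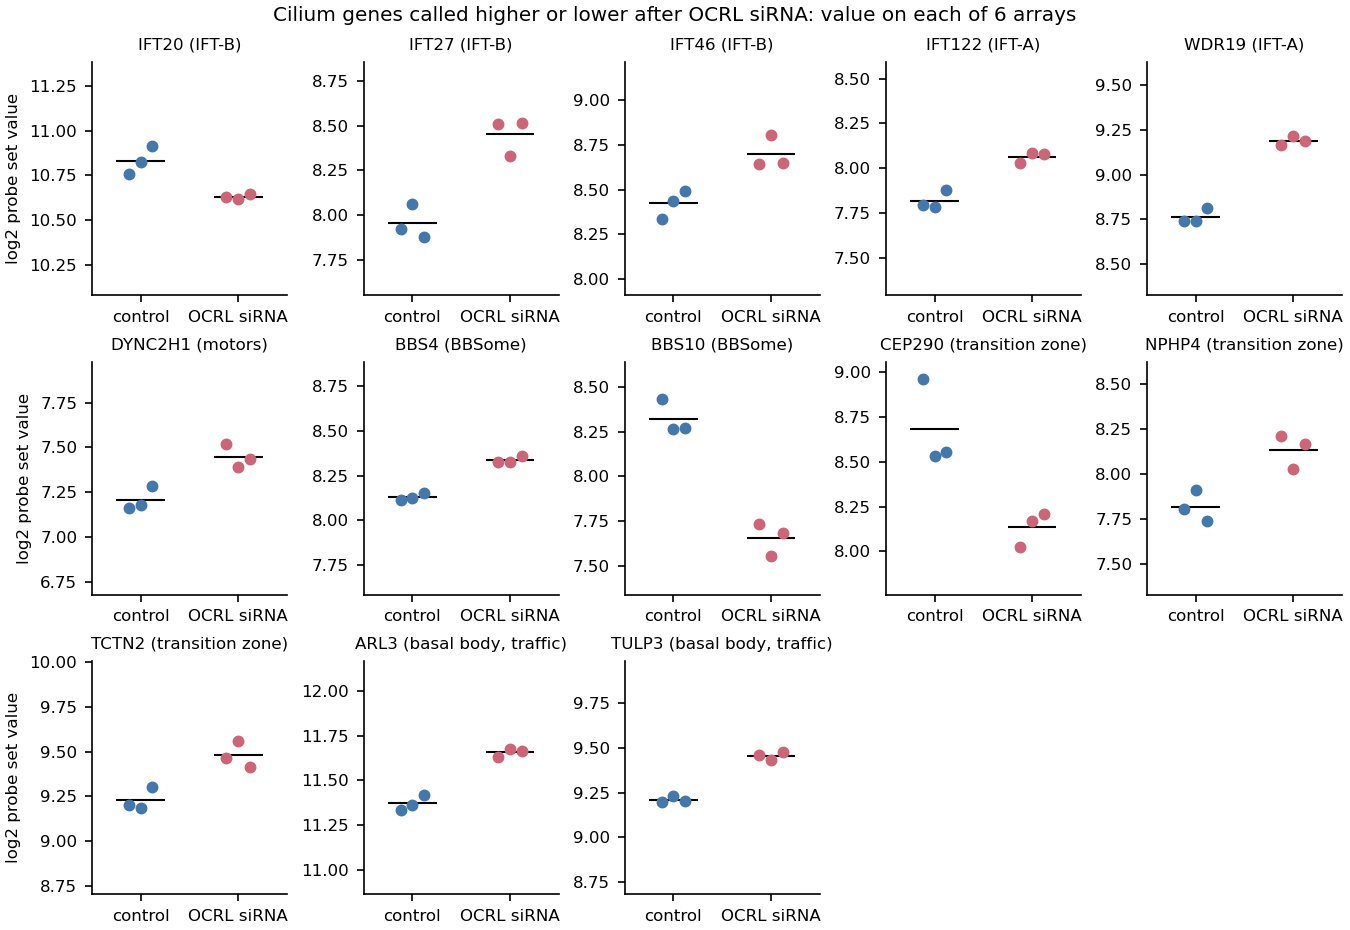
Log2 value of the 13 called cilium genes on each of the 6 arrays, with a line at the mean of each group; every panel spans the same range of log2 units around its own centre. Knockdown arrays lie above control arrays in 10 panels and below them in those of IFT20, BBS10 and CEP290, and CEP290 shows control replicate 1 apart at 8.96.

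The BBSome and its assembly factors had 1 gene higher and 1 lower among 5 measured, with a median difference of 0.0020. BBS10, a chaperonin-like protein that helps assemble the BBSome and a frequent site of mutations in Bardet-Biedl syndrome, showed the largest change of the 30. It was at 8.43, 8.26 and 8.27 in control cells and 7.73, 7.56 and 7.68 in knockdown cells, from 8.32 ± 0.0946 to 7.66 ± 0.0915. The groups lay well apart, and 63.1% of the control level was left (log2 difference -0.66, SE 0.0696, adjusted p = 8.65e-04). The BBS10 call was kept in all 15 alternative settings, with differences from -0.71 to -0.61. BBS10 had 1 probe set, so the settings that filter, choose or average probe sets reused its values and gave the same difference. Its promoter, shown for comparison with IFT122 and WDR19 above, holds no X-box match.
BBS10 (chr12:76348396-76348665, minus strand): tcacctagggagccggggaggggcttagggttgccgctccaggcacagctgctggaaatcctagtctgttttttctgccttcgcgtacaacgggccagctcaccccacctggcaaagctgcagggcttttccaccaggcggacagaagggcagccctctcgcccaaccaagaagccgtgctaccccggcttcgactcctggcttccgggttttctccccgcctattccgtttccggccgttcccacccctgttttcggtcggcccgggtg

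BBS4, a subunit that joins the BBSome late in assembly, was at 8.12, 8.13 and 8.15 in control cells and 8.33, 8.33 and 8.36 in knockdown cells. It rose 1.15-fold (log2 difference 0.21, SE 0.0400, adjusted p = 0.0110). Its other probe set moved by as much, 0.21, and narrowly did not pass (adjusted p = 0.0513). In both probe sets all knockdown arrays were above all control arrays. The remaining BBSome genes did not pass and overlapped between groups. BBS1, which binds the recruiting GTPase ARL6, had a difference of 0.05 (95% interval -0.15 to 0.25), and the scaffold subunits BBS7 and BBS9 had 0.0020 (-0.14 to 0.14) and -0.03 (-0.17 to 0.11). The brightest BBS9 probe set was at 7.11, 6.92 and 7.04 in control cells and 6.97, 7.04 and 6.98 in knockdown cells. The 4 probe sets of BBS9 had differences from -0.15 to 0.09, of both signs, and none was called.

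Transition zone genes also went both ways, with 2 higher, 1 lower and 2 not past the test, and a median difference of 0.03. CEP290, a long coiled-coil protein that ties the microtubules to the ciliary membrane, was at 8.96, 8.53 and 8.55 in control cells and 8.02, 8.17 and 8.21 in knockdown cells. Control replicate 1 was far above the other controls, but the groups did not overlap, and 68.3% of the control level was left (log2 difference -0.55, SE 0.122, adjusted p = 0.0186). Without control replicate 1 the difference was -0.41 and still called. The second CEP290 probe set fell too, from 8.36, 8.29 and 8.31 to 7.90, 7.93 and 8.01 (log2 difference -0.37, SE 0.0479, adjusted p = 0.00200). CEP290 was the only 1 of the 7 called cilium genes with several probe sets in which another was called as well.

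NPHP4, a nephronophthisis protein of the gate, was at 7.81, 7.91 and 7.74 in control cells and 8.21, 8.03 and 8.17 in knockdown cells. It rose 1.25-fold (log2 difference 0.32, SE 0.0682, adjusted p = 0.0166), and lost the call without control replicate 3 or OCRL siRNA replicate 1 or 3 (0.0546 to 0.0622). TCTN2, a tectonic protein of the gate complex, was at 9.20, 9.19 and 9.30 in control cells and 9.47, 9.56 and 9.41 in knockdown cells (log2 difference 0.25, SE 0.0572, adjusted p = 0.0215). Its probe set is of the _x_at kind, which can bind other transcripts, and the call was lost without control replicate 1 or 2 or OCRL siRNA replicate 1 or 2 (adjusted p = 0.0550 to 0.0732). Its relative TCTN1 was at 8.30, 8.25 and 8.26 against 8.25, 8.34 and 8.31 (log2 difference 0.03, 95% interval -0.07 to 0.14).

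RPGRIP1L, which organises the gate, was at 9.05, 8.58 and 8.48 in control cells and 8.53, 8.51 and 8.60 in knockdown cells (log2 difference -0.15, 95% interval -0.49 to 0.18). As for CEP290, control replicate 1 stood above the other controls, and without it the difference was 0.02. That array lay over 0.2 above the mean of the other controls in 5 of the 30 genes and as far below it in 0. Over all genes it lay over 0.2 away in 16.7%, against 7.94% to 11.2% for the other arrays. Among the 30 genes the share was also 16.7% for this array.

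**Figure D3:**
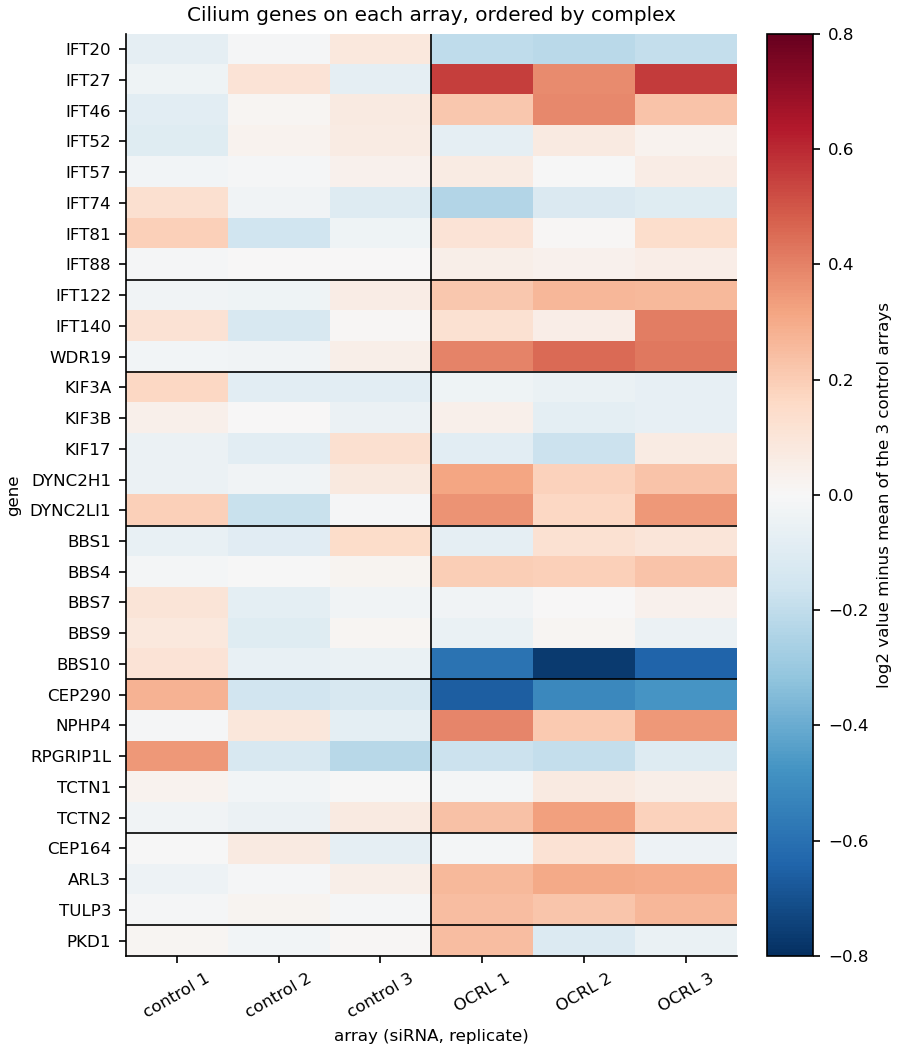
Log2 value of each of the 30 measured cilium genes on each array minus the mean of the 3 control arrays, ordered by complex with lines between complexes. Control replicate 1 stands out in CEP290 and RPGRIP1L, and the rows of WDR19, IFT27, BBS10 and CEP290 differ in colour between the groups.

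Both traffic factors measured beside the complexes rose. ARL3, a small GTPase that releases lipid-modified proteins into the cilium, was at 11.33, 11.36 and 11.42 in control cells and 11.63, 11.68 and 11.67 in knockdown cells. It rose 1.22-fold (log2 difference 0.29, SE 0.0439, adjusted p = 0.00415). TULP3, which binds phosphoinositides and IFT-A to bring receptors into the cilium, was at 9.20, 9.23 and 9.20 in control cells and 9.46, 9.43 and 9.47 in knockdown cells. Its rise was 1.18-fold (log2 difference 0.24, SE 0.0401, adjusted p = 0.00550). For both genes the arrays of a group lay close together and the calls were kept in all 15 settings. The dimmer probe sets of ARL3 (0.09) and TULP3 (0.08) were not called. CEP164, the distal appendage protein that docks the basal body, was at 7.63, 7.71 and 7.56 against 7.62, 7.75 and 7.60 (log2 difference 0.02, 95% interval -0.13 to 0.17). Neither this nor its dimmer probe set (-0.03) was called.

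Of the polycystins, the membrane proteins mutated in dominant polycystic kidney disease, PKD1 was measured. It was at 6.64, 6.61 and 6.64 in control cells and 6.88, 6.52 and 6.58 in knockdown cells (log2 difference 0.03, 95% interval -0.20 to 0.25, adjusted p = 0.877). OCRL siRNA replicate 1 lay above all the others, and without it the difference was -0.08. The other PKD1 probe sets had differences of -0.03 and 0.07 and were not called. PKD1 has near-identical pseudogene copies, whose signal cannot be separated from its own here.

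Among the 30 genes, where a gene had more than 1 probe set, the dimmer ones were seldom called. The 12 cilium genes with several had 15 others between them, of which 9 had the sign of the brightest probe set, 6 the opposite sign and 1, that of CEP290, was called. Over all probe sets, the brightest of each gene included, 23.1% were called, 13.2% higher and 9.89% lower. The 6 called genes IFT20, IFT46, WDR19, DYNC2H1, BBS10 and TCTN2 had 1 probe set each, so their calls have no such check.

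**Figure D4:**
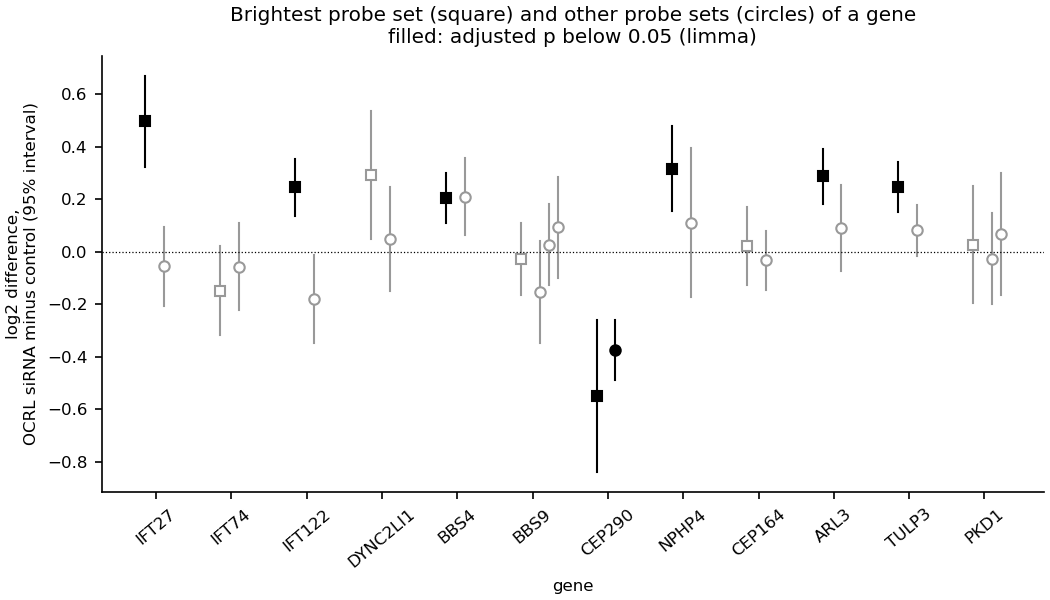
Log2 difference (OCRL siRNA minus control) with its 95% interval for each probe set of the 12 cilium genes that had more than 1; squares are the brightest probe set, circles the others, and filled symbols have an adjusted p below 0.05. Only CEP290 has 2 filled symbols (-0.55 and -0.37), and IFT122 has a square at 0.25 and a circle at -0.18.

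Another 106 genes of the cilium were listed by role, of which 79 were measured under 1 symbol; 19 were higher, 6 lower and 54 not past the test, or 31.6% called against 26.0% of all genes. Their median difference was 0.02. After median centring, which lowers all differences by the same amount, 10 were higher and 9 lower, and after quantile normalization 14 were higher and 7 lower. Without control replicate 2 or 3, or any 1 of the OCRL siRNA arrays, the count higher was 9 to 11, and without control replicate 2 or OCRL siRNA replicate 2 the count lower was 3.

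Next to the complexes above, 1 of 11 other IFT and motor subunits (9.09%) was higher and none lower, against 26.0% of all genes called. This was IFT25, the partner of IFT27, whose 3 probe sets were all called higher (0.18, 0.21 and 0.46). Its brightest probe set lost the call after median centring (adjusted p = 0.0965) and without control replicate 2 or 3 or OCRL siRNA replicate 1 or 3 (0.0862 to 0.104). Of 4 other BBSome factors, CCDC28B, a modifier of Bardet-Biedl syndrome, rose 1.45-fold, from 7.59, 7.45 and 7.52 to 8.07, 8.09 and 8.01 (log2 difference 0.54, SE 0.0527, adjusted p = 6.85e-04). The other CCDC28B probe set, far dimmer, was not called (0.17, adjusted p = 0.185), and it stood for the gene with _s_at and _x_at probe sets left out (0.204). MKKS, a chaperonin-like partner of BBS10, rose 1.16-fold (log2 difference 0.21, SE 0.0572), without a call after median centring (adjusted p = 0.0687) or without any 1 of the arrays other than OCRL siRNA replicate 1 (0.0506 to 0.102). BBS10 and MKKS, which act together in BBSome assembly, thus lay on opposite sides of 0. Probe sets also disagreed in genes whose brightest one was not called, and these are named after their values were seen. BBIP1, a BBSome subunit, was such a gene: the brightest was not called (0.07, adjusted p = 0.252) and the other was lower, at 9.28, 9.11 and 9.03 against 8.48, 8.35 and 8.38 (log2 difference -0.73, SE 0.0744, adjusted p = 7.61e-04). For AHI1, a transition zone gene, the brightest had a difference of -0.05 (adjusted p = 0.608), and the others were higher, by 0.31 (0.00561) and 0.85 (0.00134). For EHD1, a membrane-shaping ATPase gene, the brightest had 0.11 (adjusted p = 0.277), and 3 of the other 4 were called higher, by 0.17 to 0.44. Dimmer probe sets were also called higher for INVS (0.25) and lower for TCTN3 (-0.18) and TRAPPC9 (-0.24).

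Of 10 other transition zone genes, B9D1 (log2 difference 0.36, SE 0.0712) and RPGR (0.39, SE 0.110) rose and none fell. The 3 probe sets of B9D1 had differences of 0.36, 0.22 and -0.31, the last with an adjusted p of 0.0547, and with probe sets averaged per gene B9D1 was not called (0.283). RPGR lost its call in 8 settings: after median centring (adjusted p = 0.0595), and without any 1 of the arrays other than control replicate 1 (0.0801 to 0.122), among others. Of 14 basal body and centriole genes, 5 rose and 2 fell. C2CD3 (log2 difference -0.29, SE 0.0533) and OFD1 (-0.26, SE 0.0543), both proteins of the distal end of the centriole, fell. CEP135, a centriole assembly protein, rose (0.22, SE 0.0496). The CEP135 call was lost after median centring (adjusted p = 0.0517) and without control replicate 2 or 3 or OCRL siRNA replicate 1 or 3 (0.0590 to 0.0733), and with probe sets averaged (0.114). The OFD1 call was lost without control replicate 2 or OCRL siRNA replicate 2 or 3 (0.0522 to 0.0563).

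Ciliary membrane traffic genes were split as well, with 3 of 17 higher and 2 lower, or 29.4% called against 26.0% of all genes. ARL2, the close relative of ARL3, rose (log2 difference 0.31, SE 0.0503), and ARL2BP, a protein that binds it, fell from 9.97, 9.99 and 9.98 to 9.60, 9.69 and 9.62 (-0.34, SE 0.0438). The other ARL2BP probe set, far dimmer, was not called (-0.06, adjusted p = 0.553), and it stood for the gene with _s_at and _x_at probe sets left out (0.586). The membrane-shaping ATPase gene EHD3 rose (0.28, SE 0.0557). Of 6 genes of cilium disassembly, the tubulin deacetylase HDAC6 (-0.33, 95% interval -0.44 to -0.21) and the kinase that activates it, AURKA (-0.23, SE 0.0485), fell, and the kinase NEK2 rose by both of its probe sets (0.23 and 0.40). The other AURKA probe sets were not called (-0.13 and -0.02). The AURKA call was lost with probe sets averaged (-0.13, adjusted p = 0.0503), with _s_at and _x_at probe sets left out (-0.02, 0.892), and without control replicate 2 or OCRL siRNA replicate 2 (0.0514 and 0.0568). HDAC6 had 2 dimmer probe sets that were not called (-0.15 and 0.14), and with probe sets averaged it was not called (-0.11, adjusted p = 0.105).

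Hedgehog signalling, which in vertebrates passes through the cilium, had 2 of 8 genes higher and none lower. PTCH1, the receptor of the pathway and itself a target of it, rose 1.33-fold, from 8.06, 7.95 and 7.94 to 8.44, 8.35 and 8.41 (log2 difference 0.42, SE 0.0525, adjusted p = 0.00186). GPR161, a receptor of the cilium that restrains the pathway, rose 1.23-fold (0.30, SE 0.0529). With probe sets averaged per gene, PTCH1 (adjusted p = 0.0946) and GPR161 (0.0619) were not called. GLI1, another target of the pathway, named after its value was seen, did not pass (-0.05, adjusted p = 0.681). In the list of RFX and ciliogenesis factors 3 of 9 were higher and none lower, or 33.3% called. GMNN (0.36, SE 0.0396), known chiefly as an inhibitor of replication licensing, rose from 11.95, 11.93 and 11.94 to 12.29, 12.29 and 12.33. RFX5 (0.15, SE 0.0421), known for MHC class II genes, and RFX3 (0.15, SE 0.0439), a regulator of cilium genes, were near the threshold and lost their calls after median centring (adjusted p = 0.126 and 0.132) and without any 1 array (0.0737 to 0.132 for RFX5, 0.0618 to 0.137 for RFX3). RFX3 was dim, under the lower quartile in all 6 samples.

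**Figure D5:**
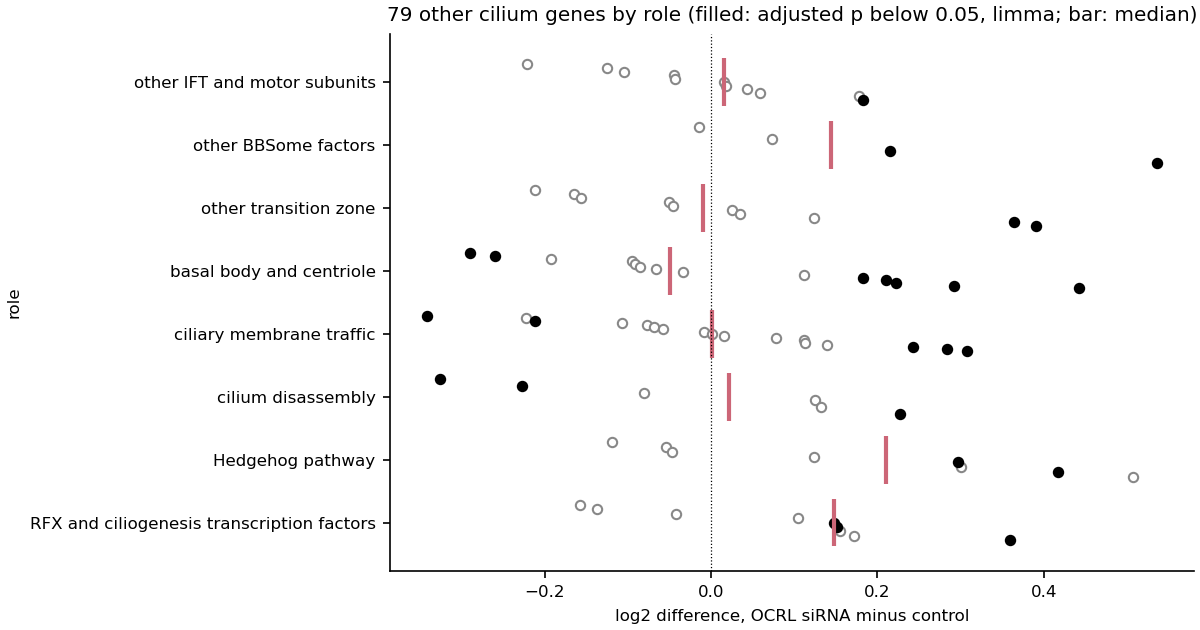
Log2 difference (OCRL siRNA minus control) of the 79 other measured cilium genes by role; filled points have an adjusted p below 0.05 and bars are medians. CCDC28B lies farthest to the right (0.54) and ARL2BP farthest to the left (-0.34).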

How the data were processed

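RNA from HK2 cells was hybridised as biotin-labelled target to Affymetrix arrays, 1 per sample, per the labels' protocols. The authors deposited log2 values per probe set, and the submitters' processing notes name affy and RMA, whose versions are not given in those sources. RMA removes changes shared by most genes and compresses differences of dim probe sets. Of 22277 probe sets, 62 controls were left out. The platform annotation gave 1 symbol for 19064 probe sets, several for 1043 and none for 2108.

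limma 3.58.1 (R 4.3.3) was fitted with a term for group alone. Tests were two-sided and adjusted by Benjamini-Hochberg over 22215 probe sets, and SE is the moderated standard error. The fit was tested on simulated data. Among the 30 genes, the value of each array was given for those called, the one with the smallest p in a complex with none called, and those whose probe sets disagreed, with some others added. Of the other cilium genes, up to 3 called per role with the smallest p were named, and BBIP1, AHI1, EHD1, INVS, TCTN3, TRAPPC9 and GLI1 stand outside that rule. The 41 genes, the other lists and the rule were chosen with earlier results of these data known. Alternatives were the replicate block, each array left out, quantile normalization, median centring, trend and robust settings, array weights, filters on dim or _s_at and _x_at probe sets, and the most variable or the mean of a gene's probe sets. Promoters came from RefSeq, and figures were drawn with matplotlib 3.10.9.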

Additional observations from a re-analysis of the deposited data

How the results depend on the processing

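Of the 13 called genes among the 30, 5 (IFT27, WDR19, BBS10, ARL3 and TULP3) kept their call in every setting that was run for them, and 12 kept their direction. With _s_at and _x_at probe sets left out, IFT122 was represented by its other probe set, at -0.18 (adjusted p = 0.133). In that setting 6 of the 18 genes still measured were higher and 1 lower, 11 other cilium genes were higher and 1 lower, and 2348 of 11813 probe sets were called. With dim probe sets left out, 10 other cilium genes were lower. Median centring left 10 other cilium genes higher. Leaving out 1 array gave 7 to 9 of the 30 genes higher, 1 to 3 lower, 9 to 16 other cilium genes higher, 3 to 9 lower, and 3576 to 4898 probe sets called. The cause was not tested. OCRL was called lower in all of its settings, at -2.07 to -1.51, the last with its probe sets averaged.

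Of the 17 genes that were not called, 11 changed sign in some setting, and none passed the test in a setting where its sign changed. After median centring IFT52 was at -0.036, IFT57 at -0.0046, IFT88 at -0.0011, BBS7 at -0.044, TCTN1 at -0.012, CEP164 at -0.025 and PKD1 at -0.019. After quantile normalization IFT52 was at -0.025, BBS7 at -0.039, TCTN1 at -0.011 and CEP164 at -0.014. With array weights IFT52 was at -0.019, and with probe sets averaged CEP164 was at -0.0061. Leaving out 1 array gave -0.038 to 0.051 for IFT52, -0.093 to 0.034 for KIF3A, -0.13 to 0.0020 for KIF17, -0.036 to 0.053 for BBS7, -0.077 to 0.014 for BBS9, -0.26 to 0.019 for RPGRIP1L, -0.0265 to 0.059 for CEP164 and -0.082 to 0.096 for PKD1. HDAC6 was at 0.14 with its most variable probe set (adjusted p = 0.498). DYNC2LI1 was called higher in 5 settings.

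Between arrays with the same replicate number, deviations from the group means correlated at 0.142, 0.123 and -0.009. Pairs 1 and 2 were the best match for their arrays and the third pair was not. Whether a shared number marks a shared experiment cannot be told from this. With the replicate number as a block, 9 of the 30 genes were higher and 2 lower, 14 other cilium genes were higher and 5 lower, and 4571 probe sets were called. IFT20 (adjusted p = 0.0526), DYNC2H1 (0.0501) and TCTN2 (0.0591) lost their calls under the block, and DYNC2LI1 gained one (0.0302). Of the other cilium genes named, RPGR (0.0560), RFX5 (0.0920) and RFX3 (0.0774) lost theirs. The number of arrays limits all of these values.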
